A study of Mus musculus with 6 samples.

Results

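Described here are 10 genes of transforming growth factor beta (TGF-beta) signalling among the 37187 genes counted in regulatory T cells (Tregs) of tumour-bearing mice. They are the ligand gene Tgfb1, its surface anchor Lrrc32, the receptor genes Tgfbr1 and Tgfbr2, the signal transducers Smad3 and Smad7, and the corepressors Ski, Skil, Tgif1 and Tgif2. The set was chosen by gene name with the differences between knockout and wild type in these same libraries already known. The fold changes of the 10 genes, and which of them passed the threshold, are therefore a description and carry no test of their own. All 10 passed the filter on low counts.

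Each library is bulk RNA of CD4+CD25+GITR+ cells sorted from lymph nodes draining a B16.F10 melanoma, a transplantable tumour line of C57BL/6 origin, on day 14 after 300000 tumour cells were injected under the skin. The 3 wild-type libraries (WT, replicates 1 to 3) came from C57BL6 mice. The 3 knockout libraries (KO, replicates 4 to 6) came from il33-/- mice on that background, so every mouse carried the tumour. IL-33 is a cytokine released by damaged tissue cells and sensed through ST2, a receptor that some Tregs carry. The labels give no age, and they do not say whether a library came from 1 animal or from a pool, so the spread between libraries may be partly technical. Total counts ran from 18071928 to 21165063 per library.

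The stated sort gate did not include Foxp3, the defining Treg transcription factor, although the cell type label names it. Its transcript stood at 750.6 ± 45.6 CPM (the count scaled to library size) in WT and 831.7 ± 36.6 CPM in KO (SD, n = 3 each). Il33 had 7, 0 and 9 counts in WT and 3, 8 and 2 counts in KO, which was too few to test and too few to check the labels. The sum of 19 B cell markers was 2310 CPM in WT replicate 1, 1212 CPM in WT replicate 2 and 1779 CPM in WT replicate 3. In KO the same sum ran from 353 to 593 CPM, and none of the 19 was at 0 in all libraries. All KO libraries were below all WT libraries in this sum, although only Vpreb3, 1 of the 19, was called lower. At an unadjusted p under 0.05 in edgeR's test, 18 of the 19 were lower and 0 higher. The share of all tested genes under this unadjusted threshold is not given, here or below. The median log2 fold change of the 19 was -1.93 (KO minus WT). Summed CD8 and NK cell markers were also lower in KO, from 32.7 to 43.7 CPM against 49.5 to 55.0 CPM in WT. Other sums lay higher in KO without overlap: T lineage genes (8937 to 9508 against 8381 to 8913 CPM), Treg markers (3827 to 4118 against 3083 to 3618 CPM), stromal, endothelial and platelet markers (249.6 to 260.4 against 215 to 233 CPM) and B16 melanoma markers (31.9 to 36.8 against 22.9 to 30.7 CPM). Of these lists, Ppbp, Tyr, Tyrp1 and Dct were at 0 in every library. Only 2 of the 6 B16 melanoma markers, Pmel and Mitf, passed the filter on low counts. Their log2 fold changes were 0.42, called higher, and -0.02. Of the 11 stromal, endothelial and platelet markers 4 passed it, and 1, Pecam1, was called higher. Myeloid and dendritic cell markers overlapped, at 123 to 133 CPM in WT and 107 to 130.4 CPM in KO, with S100a9 at 0. The part of these sums in the differences was not tested. Fits with a B cell score are given below, but score and genotype move together, so they cannot test it. In bulk RNA a smaller share of one cell type and less RNA per cell cannot be told apart.

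TGF-beta is secreted in a latent form, which Tregs hold on their surface through GARP, the product of Lrrc32, until integrins release it. The active ligand joins the type II receptor (Tgfbr2) to the type I receptor (Tgfbr1), which phosphorylates SMAD2 and SMAD3 so that they enter the nucleus with SMAD4. Smad7 encodes an inhibitory SMAD that is induced by the pathway and blocks the type I receptor. Ski, Skil (which encodes SnoN), Tgif1 and Tgif2 encode nuclear proteins that bind SMAD complexes and recruit histone deacetylases. In T cells the pathway supports Foxp3 expression and restrains type 1 effector genes.

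Because Tgif1 and its paralog Tgif2 both stood higher in KO, the sequences just before their starts are shown. Examined were 12 RefSeq promoter windows of 7 of the 10 genes, on build GRCm38.p6. Each ran from 250 bases before to 50 bases after an annotated start. Tgif1 had 5 of these windows and Tgfbr1 had 2. No window of Smad7, Skil or Lrrc32 was examined, which does not mean that RefSeq lists no start for them. The motif matches therefore say nothing about these genes, of which Smad7 and Skil were called higher. Capitals mark every match, on either strand, to 6 motifs: the SMAD palindrome GTCTAGAC, the short SMAD site CAGAC, the GC-rich SMAD site GGCGCC, the TGIF site CTGTCA, the AP-1 site TGANTCA and the cAMP response element TGACGTCA. Matches to the short SMAD site and the TGIF site can overlap.
Tgif1 start at 70853532, bases before it (chr17:70853533-70853782, minus strand): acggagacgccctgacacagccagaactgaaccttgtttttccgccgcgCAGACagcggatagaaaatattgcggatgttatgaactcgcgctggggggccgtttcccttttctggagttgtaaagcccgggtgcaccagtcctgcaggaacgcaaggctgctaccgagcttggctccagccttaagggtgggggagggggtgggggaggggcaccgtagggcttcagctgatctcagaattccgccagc
Tgif1 start at 70851734, bases before it (chr17:70851735-70851984, minus strand): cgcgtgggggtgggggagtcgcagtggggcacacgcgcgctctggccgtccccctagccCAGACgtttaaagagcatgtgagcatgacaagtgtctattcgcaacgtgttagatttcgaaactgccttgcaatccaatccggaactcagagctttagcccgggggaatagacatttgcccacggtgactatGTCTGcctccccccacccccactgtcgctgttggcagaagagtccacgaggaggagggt
Tgif1 start at 70851210, bases across it (chr17:70851188-70851217, minus strand): gctctctcactcTGACAGcgccgaggtgcg
Tgif2 start at 156840007, bases before it (chr2:156839757-156840006, plus strand): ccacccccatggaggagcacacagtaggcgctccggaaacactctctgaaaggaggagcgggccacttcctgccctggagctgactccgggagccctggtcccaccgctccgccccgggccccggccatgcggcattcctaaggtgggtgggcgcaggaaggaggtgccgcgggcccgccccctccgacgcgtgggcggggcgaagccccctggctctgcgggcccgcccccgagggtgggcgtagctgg

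Short SMAD sites lay in 3 of the 5 Tgif1 windows, in 1 Tgfbr1 window and in the Tgfbr2 window. Of all 32851 windows of this length, 49.59% held at least 1. TGIF sites lay in the other 2 Tgif1 windows, against 19.18% of all windows. The GC-rich SMAD site lay in the Ski window and in 1 Tgfbr1 window, against 11.87% of all windows. The Tgif2 window held none of the 6 motifs. No window of the 7 genes held the SMAD palindrome, the AP-1 site or the cAMP response element, which 0.21%, 7.81% and 1.79% of all windows held. These matches describe letters only, and the counts, which are summed per gene, do not say which Tgif1 start was used. GENCODE M21 lists 12 Tgif1 transcripts with 11 different start positions.

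Of the 10 genes, 5 were called higher in KO and 0 lower, while 501 of 13626 tested genes (3.68%) were called higher and 385 (2.83%) lower, 6.5% in either direction. A gene is called here when its adjusted p is under 0.05 in edgeR's quasi-likelihood test over all tested genes. The 5 were Tgif1, Tgif2, Smad7, Skil and Tgfbr1, which comprise a receptor gene and 4 genes whose products restrain SMAD signalling. Tgfb1, Lrrc32, Tgfbr2, Smad3 and Ski were not called. The median log2 fold change of the 10 genes was 0.28, beside 0.000262 for all tested genes. Since the set was picked with this contrast known, nothing is read from these shares.

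**Figure D1:**
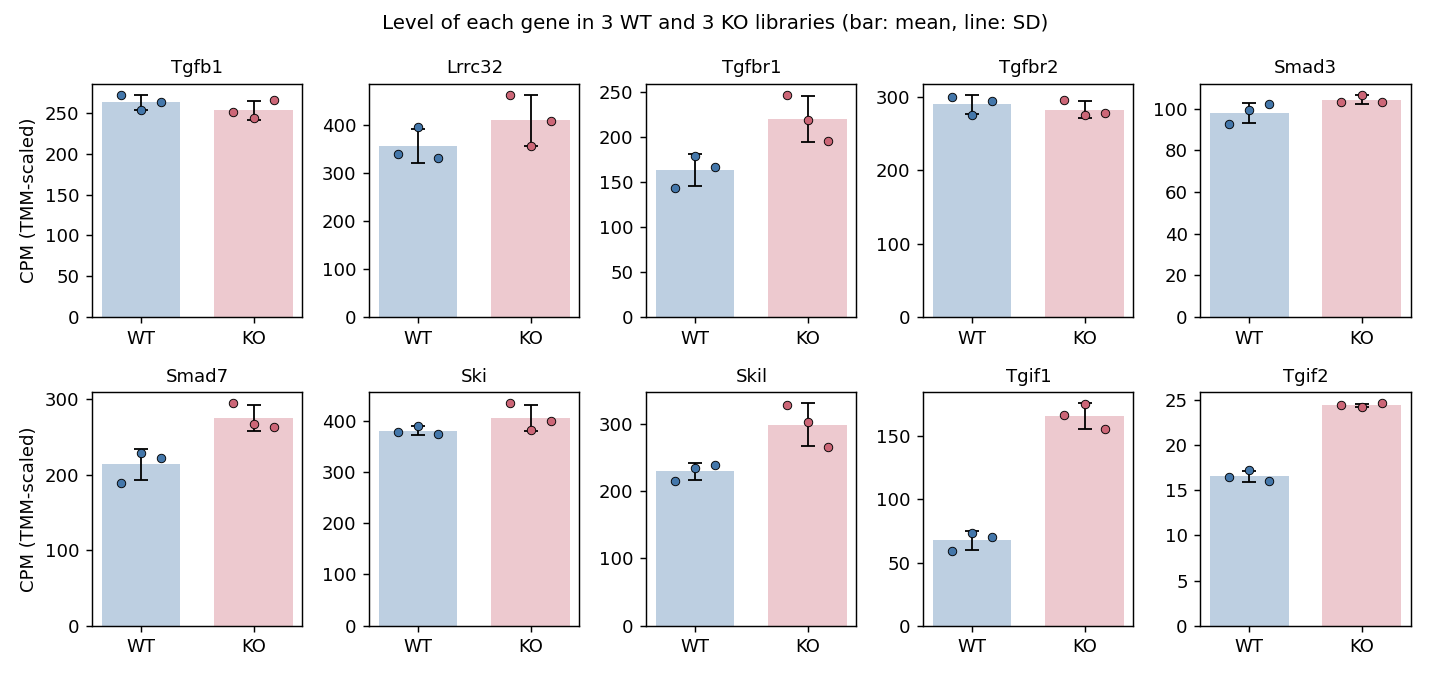
TMM-scaled CPM of each of the 10 genes in WT (blue) and KO (red) libraries; points are single libraries, bars are means and lines are SDs (n = 3 each). Tgif1 ran from 59.2 to 73.3 CPM in WT and from 156 to 176 CPM in KO, while the groups overlapped for Tgfb1, Lrrc32, Tgfbr2 and Ski.

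Tgif1 had the widest difference of the 10. Tgif1 (ENSMUSG00000047407, chromosome 17, 70844205 to 70853546 on the minus strand of GRCm38) encodes a homeodomain repressor of SMAD and retinoid-responsive genes. It stood at 59.2, 73.3 and 70.1 CPM in WT replicates 1, 2 and 3 and at 166, 176 and 156 CPM in KO replicates 4, 5 and 6. The lowest KO library was above the highest WT library by more than the range within either group. The log2 fold change was 1.30 (SE 0.08), a 2.46-fold difference with a 95% interval from 2.18 to 2.77. These levels rest on 1248 to 1410 reads in WT and 3272 to 3688 reads in KO.

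Tgif2, the paralog with a closely related homeodomain, was the least abundant of the 10 and also higher in KO. Tgif2 (ENSMUSG00000062175, chromosome 2, 156840007 to 156855570, plus strand) had 16.5, 17.2 and 15.99 CPM in WT and 24.4, 24.2 and 24.6 CPM in KO. The groups did not overlap, and the SD over KO libraries was 0.202 CPM. The log2 fold change was 0.56 (SE 0.09), or 1.47-fold. An antisense transcript, 5430405H02Rik, shares 2171 exonic bases with Tgif2, and since strand use in the counting is not given, reads of the 2 cannot be told apart there. That transcript itself had 27 to 59 counts per library, against 289 to 517 for Tgif2. Another gene on the opposite strand, Gm37790, shares 189 exonic bases with Tgif2 and has no counts given. No other of the 10 genes overlapped another annotated gene.

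The pair also differed in proportion. On the length-scaled FPKM values deposited by the authors (fragments scaled to gene length and library size), Tgif1 was 3.64, 4.32 and 4.45 times as high as Tgif2 in WT and 6.93, 7.37 and 6.42 times in KO. The ratio was higher in every KO library than in any WT library. It was not tested, because both genes belong to the chosen set.

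Of the related SMAD corepressors Skil and Ski, Skil was called higher and Ski was not called. Skil (ENSMUSG00000027660, chromosome 3, 31095058 to 31122577, plus strand), itself a gene that TGF-beta signalling induces, had 215, 234 and 239 CPM in WT and 328, 302 and 265 CPM in KO. The groups did not overlap, with KO replicate 6 nearest to WT, and the log2 fold change was 0.38 (SE 0.08). Ski (ENSMUSG00000029050, chromosome 4, 155154075 to 155222592, minus strand) had 377, 390.4 and 373 CPM in WT and 434, 383 and 399 CPM in KO. Here KO replicate 5 lay inside the WT range. Its log2 fold change of 0.09 (SE 0.06) had a 95% interval from -0.03 to 0.21, so a rise of more than 1.16-fold lies outside it. The ratio of Ski to Skil in FPKM was 2.90 ± 0.167 in WT and 2.38 ± 0.217 in KO (SD, n = 3 each), a difference that was not tested.

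Of the receptor chains, Tgfbr1 was called higher in KO and Tgfbr2 was not called. Tgfbr1 (ENSMUSG00000007613, chromosome 4, 47353222 to 47414931, plus strand), the signalling kinase, had 144, 179 and 167 CPM in WT and 247, 219 and 196 CPM in KO. All KO libraries were above all WT libraries, but the gap between KO replicate 6 and WT replicate 2 was smaller than the spread within either group. The log2 fold change was 0.44 (SE 0.10), and the call was lost on leaving out any 1 of 4 libraries. With WT replicate 1 left out it was 0.35, and with WT replicate 3 left out 0.45. Dropping KO replicate 4 gave 0.35, and dropping KO replicate 5 gave 0.44. Tgfbr2 (ENSMUSG00000032440, chromosome 9, 116084293 to 116175360, minus strand), the ligand-binding chain, had 300.0, 276 and 295 CPM in WT and 296, 275 and 278 CPM in KO. Its groups overlapped almost fully, with a log2 fold change of -0.04 (95% interval -0.16 to 0.08). In FPKM, Tgfbr1 stood at 0.351 to 0.475 of Tgfbr2 in WT libraries and at 0.518 to 0.613 in KO libraries, which was not tested.

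The inhibitory SMAD was higher in KO, and the receptor-activated SMAD was not called. Smad7 (ENSMUSG00000025880, chromosome 18, 75367529 to 75395935, plus strand) had 189, 229 and 223 CPM in WT and 294, 267 and 263 CPM in KO. The groups did not overlap, and WT replicate 1 and KO replicate 4 lay farthest apart. The log2 fold change was 0.36 (SE 0.07), or 1.29-fold. Smad3 (ENSMUSG00000032402, chromosome 9, 63646767 to 63757994, minus strand) had 92.6, 99.2 and 102 CPM in WT and 103.2, 107 and 103.1 CPM in KO. The KO values sat just above the WT values, with a log2 fold change of 0.09 (SE 0.06) and a 95% interval from -0.04 to 0.22.

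Neither the ligand gene nor its anchor was called. Tgfb1 (ENSMUSG00000002603, chromosome 7, 25687002 to 25705077, plus strand) had 273, 254 and 264 CPM in WT and 251, 244 and 266 CPM in KO. The groups overlapped, and the log2 fold change of -0.05 had a 95% interval from -0.17 to 0.07, which is 0.887-fold to 1.05-fold. Lrrc32 (ENSMUSG00000090958, chromosome 7, 98489283 to 98502181, plus strand) had 339.9, 396 and 331 CPM in WT and 463, 357 and 409 CPM in KO. Its spread was the widest of the 5 uncalled genes, KO replicate 5 lay below WT replicate 2, and the log2 fold change was 0.20 (SE 0.10, 95% interval -0.03 to 0.44). Of 17 alternative settings, the 1 that called it was edgeR with no filter on low counts. Adjusted for the B cell score described below, its value was -0.10.

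Between WT and KO the order of levels per length changed at the place of Tgif1. Tgfb1 and Lrrc32 also changed places, as did Tgfbr2 and Smad7. In WT, mean FPKM fell from Tgfb1 (103) through Lrrc32 (92.8), Ski (68.1), Tgfbr2 (60.5), Smad7 (47.1), Tgfbr1 (24.9), Skil (23.6), Tgif1 (17.9) and Smad3 (17.6) to Tgif2 (4.33). Without WT replicate 2, Tgif1 and Smad3 changed places; no other library changed the order in its group. Neighbours whose WT ranges overlapped were Tgfb1 with Lrrc32, Tgfbr1 with Skil, and Tgif1 with Smad3. In KO, Tgif1 (43.9 FPKM) stood above Tgfbr1 (33.6 FPKM) and Skil (30.6 FPKM) with no overlap of its range with theirs. Smad7 (60.4 FPKM) stood above Tgfbr2 (58.8 FPKM) in KO, and their ranges overlapped in KO but not in WT. Lrrc32 (106.7 FPKM) stood above Tgfb1 (98.6 FPKM) in KO, with ranges that overlapped in both groups. The ranges of Tgfbr1 and Skil likewise overlapped in both groups.

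**Figure D2:**
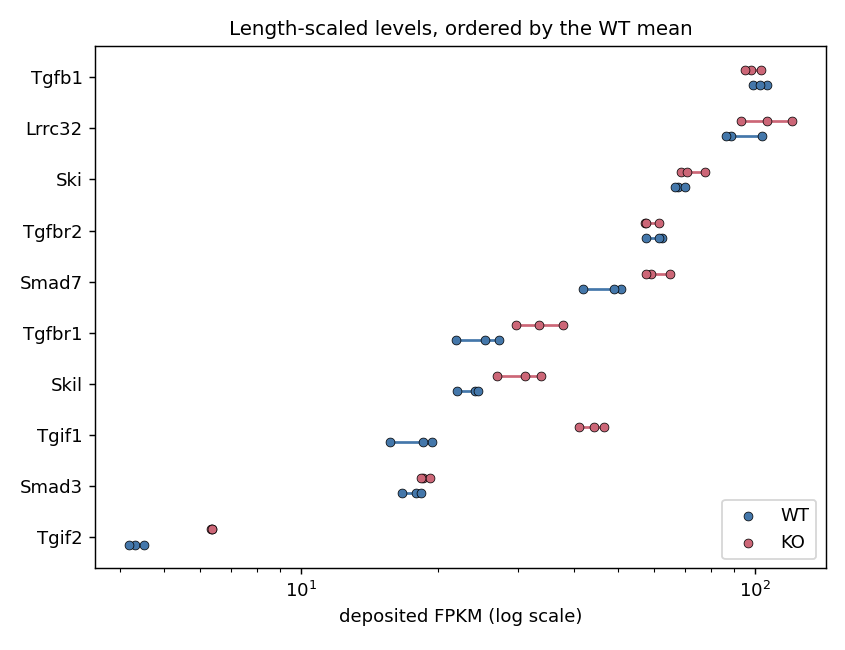
Deposited FPKM (horizontal, log scale) of the 10 genes in each WT (blue) and KO (red) library, ordered by the WT mean; lines join the lowest and highest library of a group. Tgif1 moves from beside Smad3 in WT (15.7 to 19.5 FPKM) to above Tgfbr1 and Skil in KO (41.0 to 46.6 FPKM).

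KO replicate 4 was the highest KO library for 6 of the 10 genes, which were Lrrc32, Tgfbr1, Tgfbr2, Smad7, Ski and Skil, and the lowest for 0. WT replicate 2 was the highest WT library for 6 genes and WT replicate 1 the lowest for 5. WT replicate 2 is also the WT library with the least B cell transcript. For Tgif1, Tgfbr1 and Smad7 the order of the WT libraries, replicate 1 below 3 below 2, was the reverse of their order in summed B cell markers. Tgif2 and Skil, also called higher, did not have this WT order. In KO the reverse order was not seen for Tgif1, Tgfbr1 or Smad7. There Tgif1 had the same order as the B cell sum, replicate 6 below 4 below 5. Tgfbr1 and Smad7 ran from replicate 6 through 5 to 4, which is neither that order nor its reverse.

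Adding a B cell score, the 19 markers' mean log2 CPM, to the model left Tgif1 as the 1 called gene of the 10, when 45 genes were called in all. Its log2 fold change was then 1.16. The estimates for Tgif2 and Skil were 0.48 and 0.38, close to those without the covariate. Those of Tgfbr1 and Smad7 were lower, at 0.26 and 0.18. Adjusted p-values of Tgif2, Skil, Tgfbr1 and Smad7 in this edgeR fit ran from 0.397 to 0.722. No SE is given for these estimates, so the genes are not sorted by how far they moved. In the fit without WT replicates 1 and 3, the libraries with the most B cell transcript, log2 fold changes were 1.18 for Tgif1, 0.50 for Tgif2, 0.35 for Skil, 0.30 for Tgfbr1 and 0.27 for Smad7. Of the 10 genes, Tgif1 was again the 1 called. Score and genotype move together in these libraries, and neither the cause of the score nor its part in the differences was tested.

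**Figure D3:**
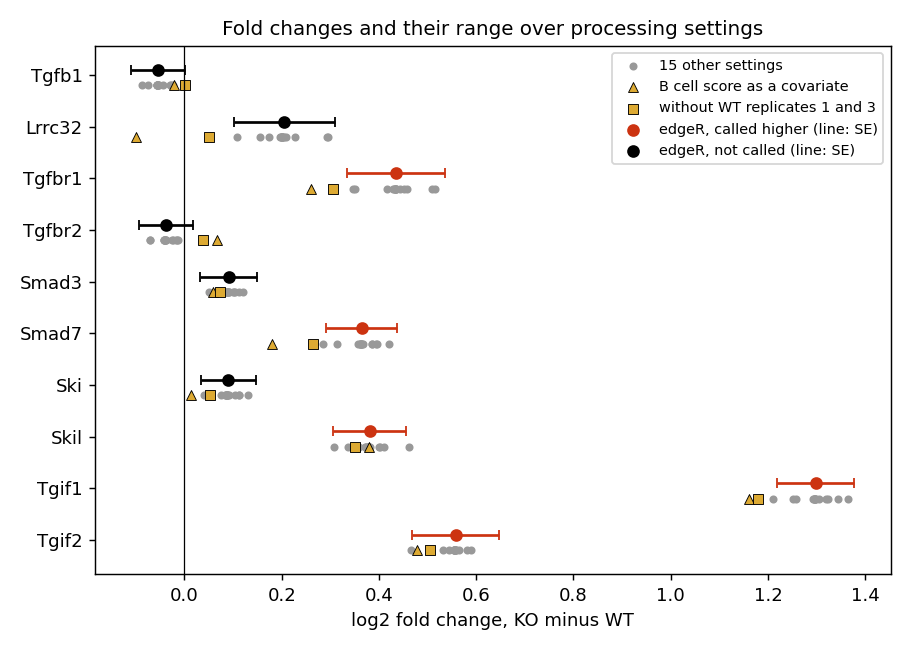
Log2 fold change (KO minus WT) of the 10 genes in the edgeR fit (upper symbol with SE, red where called higher, black where not called) and in 17 other settings (lower symbols). Tgif1 ran from 1.16 to 1.37 over these settings, while Tgfbr1 and Smad7 were lowest when adjusted for the B cell score (triangles), at 0.26 and 0.18.

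Leaving out single libraries left the calls of Tgif1, Tgif2 and Smad7 in place in 6 of 6 fits. Skil lost its call without KO replicate 5, at a log2 fold change of 0.37. On the log2 scale the 6 fits ran from 1.21 to 1.37 for Tgif1, from 0.53 to 0.59 for Tgif2, from 0.28 to 0.42 for Smad7 and from 0.31 to 0.46 for Skil.

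The 5 genes most like Tgif1, by Pearson correlation of log2 CPM over the 6 libraries, were Map2, Klf6, Pam, Zc3h12a and Rgcc, at r from 0.997 to 0.998. All 5 were called higher, with log2 fold changes of 1.43, 1.17, 0.45, 0.65 and 1.17. Map2 encodes a microtubule-associated protein, Pam an enzyme that amidates peptides and Rgcc a regulator of the cell cycle. Klf6 encodes a zinc finger transcription factor and Zc3h12a an RNase that degrades cytokine messages. Klf6 ran from 223 to 294 CPM in WT and from 567 to 612 CPM in KO, and Zc3h12a from 76.0 to 81.5 CPM in WT and from 121 to 127 CPM in KO. All 6 libraries share the difference between genotypes, which alone gives a high r, and 269 of 11684 protein-coding genes compared had an r above 0.95.

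Around the 10 genes, 120 other genes of the pathway and its targets were listed by role, of which 99 passed the filter on low counts. Of these 99 genes 16 rose, 2 fell and 81 did not pass, so 18.2% were called beside 6.5% of all tested genes. The lists were also chosen with earlier results of these data known, so nothing is read from these shares. Their median log2 fold change was 0.04. Adjusted p-values in what follows come from the same edgeR fit and cover all 13626 genes. The KO libraries also had the lower sums of B cell markers, so values adjusted for the B cell score stand beside these changes. The part of that sum in them was not tested.

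**Figure D4:**
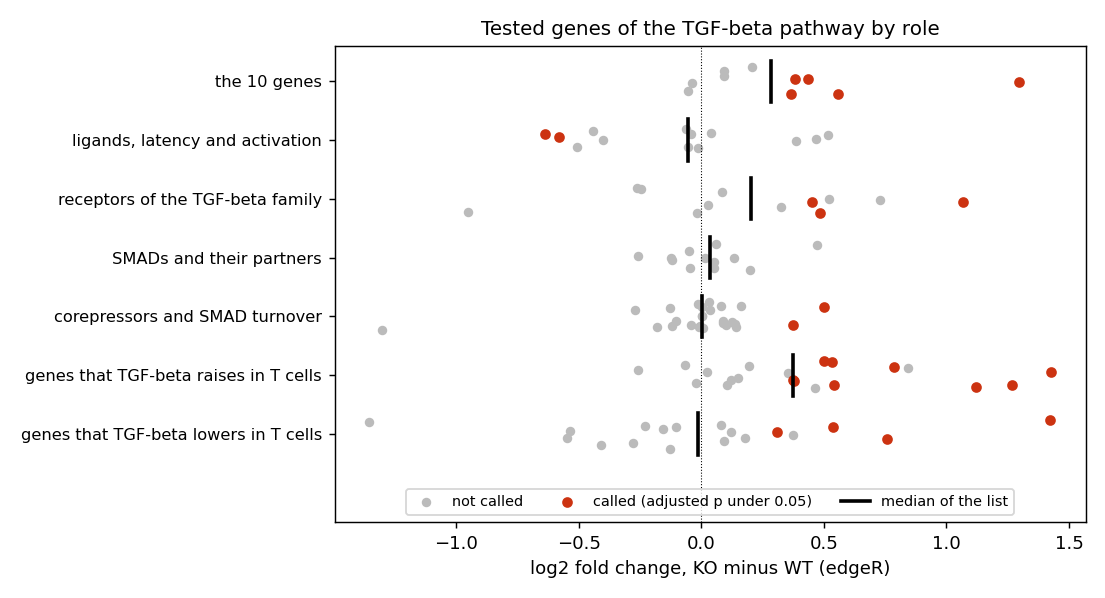
Log2 fold change (KO minus WT) of every tested gene by role, with called genes in red, the others in grey and the median of each list as a black bar; vertical scatter has no meaning. Called genes lie to the right of 0 in each list that has any, except for 2 genes that fell among the ligands and activators.

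Of the tested genes for ligands, latency and activation, 0 of 13 rose and 2 fell, with a median of -0.05. Itgb3, 1 of several integrin beta chains that can pair with the alpha-v chain, fell from 86.0 ± 2.31 CPM in WT to 57.5 ± 2.93 CPM in KO (mean and SD of 3 libraries). Its log2 fold change was -0.58 (SE 0.06, edgeR adjusted p = 0.000143). All KO libraries were below all WT libraries, and adjusting for the B cell score gave -0.64, still called. Gdf11, a ligand of the same superfamily, fell from 23.3 ± 3.73 to 14.9 ± 0.738 CPM (adjusted p = 0.00796), but its log2 fold change moved from -0.64 to -0.16 with that adjustment and was no longer called. Both calls held in all 6 fits that left out a library. Itgb8 and Itgb1, other integrin beta chains of this list, were picked after their values were seen. Their log2 fold changes were 0.47 (SE 0.22) and -0.06 (SE 0.07), and neither was called.

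Receptors of the wider family were called higher in 3 of 12 cases and lower in 0. Nrp1, a surface receptor that binds latent and active TGF-beta, rose on the log2 scale by 0.45 (SE 0.07, adjusted p = 0.00145), with KO above WT in every library. Acvr2a, an activin receptor, rose from 14.7 ± 1.15 to 20.6 ± 2.22 CPM (adjusted p = 0.0210). Bambi, a decoy receptor without a kinase domain, rose from 4.26 ± 1.501 to 8.86 ± 1.59 CPM (adjusted p = 0.0325). Acvr2a lost its call without WT replicate 3, KO replicate 4 or KO replicate 5, and Bambi without any 1 KO library, with adjusted p-values of up to 0.104 and 0.0850. The list had 1 called gene without KO replicate 4 or KO replicate 5. Adjusted for the B cell score, Nrp1, Acvr2a and Bambi stood at 0.29, 0.66 and 0.66, and none of them was called.

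Of the 12 tested SMADs and partners, 0 passed with edgeR's test, and 1, Smad5, had an unadjusted p under 0.05. The value for Smad2 was 0.06 (SE 0.06) on the log2 scale, and for Smad4, the shared partner, -0.13 (SE 0.06); these and Smad5 were chosen after their values were seen. By FPKM the most abundant were Tab2, an adaptor of the kinase TAK1, and Ep300, a histone acetyltransferase, at log2 fold changes of 0.02 and -0.12. DESeq2, and edgeR with no filter, each called 1 gene of this list lower, and limma-voom called 0.

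Corepressors and regulators of SMAD turnover held 2 called genes of 26, both higher. At an unadjusted p under 0.05 edgeR had 3 higher and 3 lower, without a share over all tested genes to set beside them. Genes of this list were called lower in some alternatives: 1 by DESeq2, 1 with no filter, 1 without KO replicate 4 and 2 without WT replicate 2. Pmepa1, which encodes a membrane protein that holds SMADs away from the receptor, rose from 33.4 ± 1.36 CPM in WT to 47.3 ± 1.98 CPM in KO (mean and SD of 3 libraries). That is 0.50 on the log2 scale (SE 0.07, edgeR adjusted p = 0.00130). Ldlrad4, a relative with the same action, rose from 53.2 ± 5.84 to 69.0 ± 7.22 CPM (adjusted p = 0.0357). Pmepa1 kept its call in the 6 fits that left out a library, while Ldlrad4 lost it in 4, with an adjusted p of up to 0.146. Adjusted for the B cell score they stood at 0.41 and 0.18, neither of them called. The ubiquitin ligases Smurf1 and Smurf2, chosen after their values were seen, had log2 fold changes of 0.14 and 0.08. The median of the list was 0.00372.

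Among genes that TGF-beta is known to raise in T cells, 9 of 20 rose and 0 fell, with a median of 0.38. Bhlhe40, a transcription factor also induced by receptor stimulation, rose from 45.2 ± 6.96 to 122 ± 11.3 CPM (SD, n = 3 each, adjusted p = 0.000435). Pmepa1, described above, is also on this list. Cdkn1a, the cell cycle inhibitor gene, rose on the log2 scale by 1.12 (SE 0.17, adjusted p = 0.00212), and Ctla4, a co-inhibitory receptor, by 0.53 (SE 0.08, adjusted p = 0.00220). The other 5, with Ldlrad4 among them, had log2 fold changes from 0.38 to 1.27. All of these had every KO library above every WT library, but for genes already called this adds no support. The share of all tested genes with such separation is not given here. Many of the 9 are also induced by T cell activation. Itgae, the integrin chain CD103, and Foxp3, chosen after their values were seen, had log2 fold changes of 0.35 (SE 0.13) and 0.15 (SE 0.06) and were not called. Without KO replicate 4 the list had 5 called genes. Adjusted for the B cell score it had 1, Bhlhe40, at 1.15.

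Of genes that TGF-beta is known to lower in T cells, 4 of 18 rose and 0 fell, with a median of -0.01. With edgeR 4 of the 18 had an unadjusted p under 0.05 in the direction of a fall. The share over all tested genes at that unadjusted threshold is not given. DESeq2 and limma-voom called 0 lower. The fit with no filter called 2 of the list lower, and the fit without WT replicate 2 called 1 lower. Ifng, the cytokine of type 1 responses, rose on the log2 scale by 1.42 (SE 0.16, adjusted p = 0.000226), and Tbx21, Gata3 and Fasl rose by 0.54, 0.31 and 0.76 (adjusted p = 0.0263, 0.0206 and 0.0323). Ifng kept its call in all 6 fits without a library. Tbx21 and Gata3 lost theirs in 4 of 6 and Fasl in 5 of 6, with adjusted p-values of up to 0.115, 0.106 and 0.130. Adjusted for the B cell score they stood at 0.22, 0.10 and 0.28, not called, and Ifng at 1.66, called. Without either of WT replicates 1 and 3, or either of KO replicates 5 and 6, Ifng was the 1 gene of the list called higher. Whether the lists of raised and lowered genes differ was not tested.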

How the data were processed

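Bulk RNA of 6 sorted Treg libraries was analysed, 3 of each genotype. The submitters' processing notes name bcl2fastq, STAR 2.4.2a, DESeq2 and GRCm38. Counter, strand use and annotation release were not given in the sources used here. Deposited by the authors were raw counts per Ensembl gene, FPKM and normalized counts. The last, a deposited signal, equal counts over a size factor within 1e-06 for 99.87% or more of the genes above 50 counts. No per-sample column was left unused. GENCODE M21 named 35412 of 37187 IDs.

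Counts were fitted with edgeR 4.0.16 (R 4.3.3) over all genes: filterByExpr, TMM, robust quasi-likelihood, two-sided, Benjamini-Hochberg, threshold 0.05. Alternatives were DESeq2 1.42.0, limma 3.58.1 (voom, and log2 of deposited values), other factors and filters, leaving out libraries and a B cell score. The script was tested on simulated data. Libraries of a group differed beyond counting noise (chi-square per degree of freedom 4.81 to 13.4). The members, lists and alternatives were chosen with earlier results of these data known. Named were the 10 genes, up to 4 called genes per list by p, the 2 most abundant where fewer than 2 were called, and the 5 most like Tgif1.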

Additional observations from a re-analysis of the deposited data

How the results depend on the processing

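The calls depend on the test. Beside 886 genes, 5 of the 10 and 18 listed pathway genes called by edgeR, limma on log2(FPKM + 1) called 120, 2 and 4, on log2(FPKM + 0.1) 75, 2 and 3, and on log2(normalized count + 1) 152, 2 and 4. DESeq2, limma-voom, RLE and upper-quartile factors and the CPM filter called 5 of the 10. With no filter 1645 genes were called. Leaving out single libraries gave 367 to 1364 genes, 3 to 5 of the 10 and 10 to 24 pathway genes. The B cell score as a covariate gave 45, 1 and 3, and leaving out WT replicates 1 and 3 together gave 282, 1 and 9, with 1 WT library assumed to vary like KO; both settings were first chosen after seeing the data. Of the 10 genes, the 5 called kept their sign in all 17 settings, as did the 18 called pathway genes in the settings that gave them a value; Ldlrad4 had none under the 3 log2 fits. Except under these last 2, the median of the 10 genes stayed within 0.1 of its value. The causes were not tested. No paired analysis was possible because the groups share no replicate number.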
